A study of Homo sapiens with 6 samples.

Results

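The protocadherin genes were taken as every gene of the expression table whose symbol starts with PCDH, except PCDH11X and PCDH11Y, which lie on the sex chromosomes and were left out. This gave 70 of 23591 genes. They fell into 15 PCDHA, 19 PCDHB and 23 PCDHG genes, which are clustered on the long arm of chromosome 5, and 13 non-clustered genes, of which PCDH9-AS2 and PCDH9-AS3 are antisense RNA genes and not protein-coding. The choice used symbols alone and no measured value.

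RNA was profiled in H1 cells, an established line of human embryonic stem cells. The groups were wild type H1 and H1 labelled HEB KO, in which HEB, the E protein transcription factor encoded by TCF12, was knocked out, with 3 libraries each, numbered 1 to 3. Both groups were grown on Matrigel in the defined TeSR-E8 medium, and their total RNA was depleted of ribosomal RNA before sequencing. The labels do not say how HEB was disrupted, nor whether the libraries of a group came from separate cultures or clones, so every p-value measures only the spread between these libraries, which may be technical.

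Protocadherins form the largest group of the cadherin superfamily of cell adhesion proteins. In the clustered genes each variable exon has a promoter of its own and encodes the extracellular and membrane-spanning part of one isoform. PCDHA and PCDHG variable exons are spliced to constant exons shared by the whole cluster, whereas each PCDHB gene is a single exon. In neurons single cells express different sets of these isoforms, and matching sets on facing membranes recognise each other, which in mice underlies the self-avoidance of neurites. Most clustered promoters carry a conserved sequence element with a CGCT core, at which CTCF and cohesin loop the promoter to distant enhancers, and DNA methylation of these promoters goes with silencing. The non-clustered genes are scattered over several chromosomes, and many are known from the developing nervous system.

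The promoter windows of a few named clustered genes show what the isoforms of one cluster share and where they part. These genes were not chosen by level alone, and PCDHGB7, the PCDHG gene of highest mean level, is not among them. Each stretch below is 38 bases of RefSeq GRCh38.p14 on the plus strand, from 22 bases before the first CGCT, read towards the gene, within 100 bases of the annotated start to 12 bases after it. The capitals mark that CGCT core. The first set holds PCDHA genes, with the C-type isoforms last.
PCDHA4 (chr5:140806973-140807010): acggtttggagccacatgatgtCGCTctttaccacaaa
PCDHA10 (chr5:140855835-140855872): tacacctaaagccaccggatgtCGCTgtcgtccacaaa
PCDHA11 (chr5:140868877-140868914): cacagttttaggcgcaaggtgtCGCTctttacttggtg
PCDHA12 (chr5:140875238-140875275): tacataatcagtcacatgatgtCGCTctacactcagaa
PCDHAC1 (chr5:140926214-140926251): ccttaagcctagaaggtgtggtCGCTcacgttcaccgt
PCDHAC2 (chr5:140966359-140966396): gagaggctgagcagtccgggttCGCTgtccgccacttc

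The PCDHB set holds the 3 genes of the highest level in that cluster and PCDHB10. All 4 share the letters that run into the core.
PCDHB2 (chr5:141094538-141094575): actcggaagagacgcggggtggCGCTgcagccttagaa
PCDHB5 (chr5:141135173-141135210): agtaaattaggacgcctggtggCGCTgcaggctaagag
PCDHB10 (chr5:141192293-141192330): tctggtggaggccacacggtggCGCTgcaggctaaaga
PCDHB15 (chr5:141245308-141245345): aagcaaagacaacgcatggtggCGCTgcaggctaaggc

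The PCDHG set holds A-type, B-type and C-type genes.
PCDHGA8 (chr5:141392562-141392599): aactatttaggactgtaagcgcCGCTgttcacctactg
PCDHGA11 (chr5:141420966-141421003): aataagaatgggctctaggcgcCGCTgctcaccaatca
PCDHGB4 (chr5:141387611-141387648): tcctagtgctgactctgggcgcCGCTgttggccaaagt
PCDHGC3 (chr5:141475874-141475911): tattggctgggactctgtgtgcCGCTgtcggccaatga
PCDHGC4 (chr5:141484946-141484983): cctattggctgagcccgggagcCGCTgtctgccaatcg

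RefSeq windows, 250 bases before to 50 after the start, were matched for 57 of the 70 genes. Counts are of genes, and a gene counted if any of its windows held the match. CGCT was searched for on the sense strand in the 100 bases before the start. It was present in 12 of 13 PCDHA, 13 of 14 PCDHB and 19 of 20 PCDHG genes. It also stood in 4 of 10 non-clustered genes and in 32.2% of all 27305 genes with a window. The first match lay at a median of 55.0 bases before the start in PCDHA, 62.0 in PCDHB and 58.0 in PCDHG. Longer forms, chosen after the windows were read and searched in the whole window on both strands, separated the clusters. GATGTCGCT was found in 9 of 13 PCDHA genes and in 35 of all 27305 genes (0.128%), members included. GGTGGCGCT stood in 13 of 14 PCDHB genes, with PCDHB1 as the exception, and in 0.619% of all genes. GCGCCGCTG stood in 10 of 20 PCDHG genes and in 1.59% of all genes. None of the 3 forms was found in a window of another class. These forms contain the CGCT core and so overlap it. PCDHAC2, PCDHB1, PCDHGC4 and PCDHGC5 are commonly described as lacking the full conserved element, so the bare CGCT printed for PCDHAC2 and PCDHGC4 is a match of letters, and whether anything binds there was not measured.

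**Figure D1:**
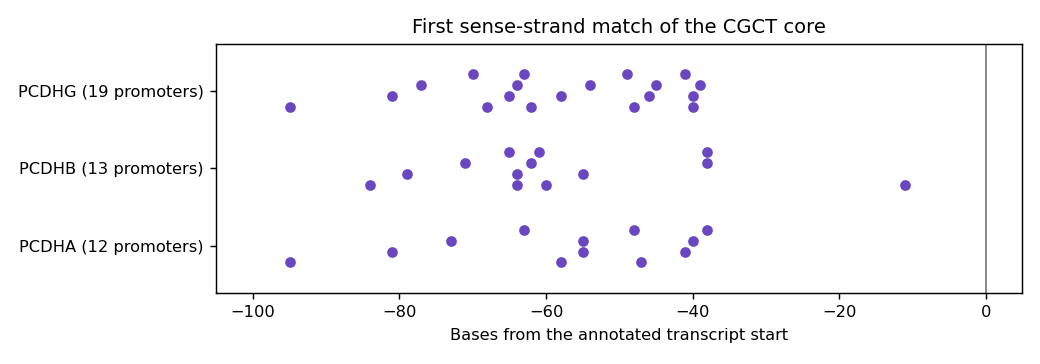
Position of the first sense-strand CGCT match before the annotated start (x axis, bases from the start at 0) in PCDHA, PCDHB and PCDHG promoter windows, 1 point per promoter, spread vertically only to keep points apart. Matches lie from 38 to 95 bases before the start in PCDHA, 11 to 84 in PCDHB and 39 to 95 in PCDHG.

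These libraries measure RNA, and reads from shared exons bear on how far single isoforms can be told apart. In the GENCODE 29 models the 15 PCDHA transcripts had 4 exons each, with a median of 54.5% of their length in exons shared with other cluster members. For PCDHG the median was 47.2%. PCDHB genes had 1 exon each and shared no exon, but a median of 14.1% of their 50-base stretches, and up to 45.8%, occurred in another member. Non-clustered genes shared none. Levels of single PCDHA and PCDHG isoforms therefore depend on how the authors' counting split reads of constant exons, which is not given in the sources used here, and such values are uncertain for single genes.

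Levels are in FPKM, a read number scaled for transcript length and library size, so genes can be compared with each other. Where 3 values follow each other for a group, they are those of libraries 1, 2 and 3. Of the 70 genes, 20 were at 1 FPKM or more in all 6 libraries, 11 were below 1 FPKM in all 6, and PCDH9-AS2 was listed at 0 in all 6. The cluster profile was uneven. PCDHB2, PCDHB5 and PCDHB15 were the top PCDHB genes in every library and together made 53.3% to 76.1% of the summed PCDHB level. In PCDHA the top 3 came from PCDHA4, PCDHA11, PCDHA12, PCDHAC1 and PCDHAC2, and in PCDHG from PCDHGB4, PCDHGB6, PCDHGB7, PCDHGA11 and PCDHGC3. Among non-clustered genes PCDH1 and PCDH18 held 76.1% to 91.2% of the sum.

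The order of the genes within a class was much alike in all libraries. Over the 15 pairs of libraries, Spearman's rho across genes ran from 0.80 to 0.97 for PCDHA, 0.91 to 0.98 for PCDHB, 0.81 to 0.97 for PCDHG and 0.87 to 0.97 for non-clustered genes. These are descriptions across genes that share libraries and, in PCDHA and PCDHG, exons. The lowest rho of each class involved HEB KO library 1.

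**Figure D2:**
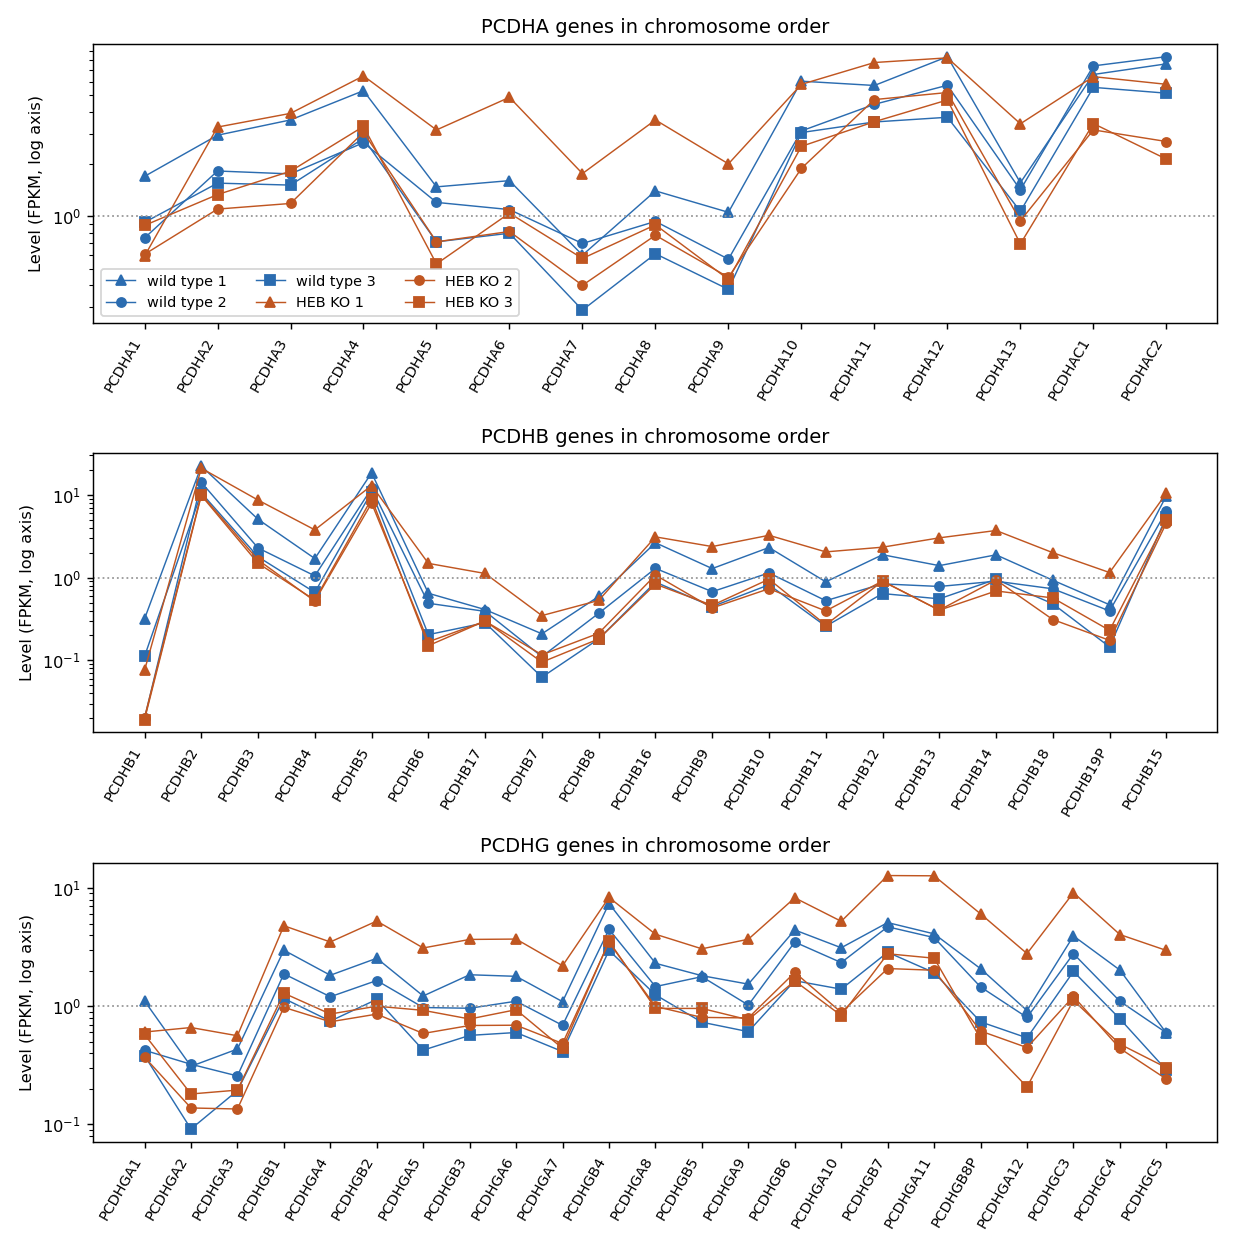
Level of every clustered protocadherin gene in chromosome order (x axis) in each of the 6 libraries (y axis, FPKM on a log axis; blue wild type, orange HEB KO; triangle, circle and square for libraries 1, 2 and 3; dotted line at 1 FPKM). The lines only join the genes of one library. HEB KO library 1 runs above the other libraries for most genes, while PCDHB2 and PCDHB5 are the highest PCDHB genes in all 6.

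The comparison of HEB KO with wild type asked which protocadherin transcripts differ when HEB is knocked out. Over all genes, limma with Benjamini-Hochberg adjustment called 31 of 12937 tested genes (0.24%), 3 higher and 28 lower in HEB KO. A gene was tested if it reached 1 FPKM in at least 3 libraries, which 37 protocadherin genes did, namely 11 PCDHA, 7 PCDHB, 15 PCDHG and 4 non-clustered genes. Each of the 37 reached 1 FPKM in libraries of both groups. None of the 37 was called, and 2, PCDH10 and PCDHAC2, had an unadjusted limma p under 0.05, against 1300 of all tested genes (10.0%). None of the 70 had groups that did not overlap, against 7.72% of all tested genes with HEB KO wholly higher and 11.8% with it wholly lower. The median log2 difference of the 37 was 0.05, beside -0.04 for all tested genes.

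TCF12, the gene of HEB, stood at 44.2, 55.7 and 51.0 FPKM across wild type and at 14.2, 6.69 and 8.28 FPKM across HEB KO, so the labels held in each library. Its log2 difference was -2.31 ± 0.28 (SE; limma, Benjamini-Hochberg adjusted p = 0.0310, n = 3 each). That call was lost without the filter on low values (limma adjusted p = 0.106) and when any library except HEB KO library 1 was left out (adjusted p from 0.126 to 0.193).

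HEB KO library 1 stood apart from the other 5 libraries, which touches every result that follows. It had the highest level for 56 of the 70 protocadherin genes and for 29 of the 37 tested ones, against 27.5% of all tested genes. Wild type library 1 was highest for 9 of the 70 and 4 of the 37, against 25.6% of all tested genes. In 31 of the 37, HEB KO library 1 was at least 2-fold above the mean of HEB KO libraries 2 and 3, against 14.9% of all tested genes. The median log2 difference between library 1 and the mean of libraries 2 and 3 in HEB KO was 1.29 for the 37 genes and 0.00 for all tested genes. By class it was 0.99 in PCDHA, 1.08 in PCDHB, 1.70 in PCDHG and 0.82 in non-clustered genes. All 15 tested PCDHG genes were highest in this library.

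Wild type library 1 leaned the same way to a smaller degree. Its log2 difference from the mean of wild type libraries 2 and 3 was above 0 for all 37 tested protocadherin genes, with a median of 0.57. Over all tested genes the median was 0.08, and 5555 of 12937 were below 0. Values are given below with all libraries and, where it matters, with libraries 2 and 3 alone.

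Several features of the libraries were set beside the protocadherin level. Summed FPKM was 440703 in HEB KO library 1 and between 635114 and 714875 in the others. Among those others it did not follow the protocadherin sum, which was next highest in wild type library 1, at a summed FPKM of 708009. The summed level of 394 olfactory receptor genes, which sense odours in the nose, was 84.2, 59.0 and 37.5 FPKM in wild type and 193, 43.8 and 37.6 in HEB KO, an order close to that of the protocadherin sums. The difference between HEB KO library 1 and libraries 2 and 3 also varied with transcript length over all tested genes, from a median log2 value of -0.59 up to 1000 bases to 0.54 above 8000 bases. The tested protocadherin transcripts had a median length of 4778 bases, and genes above 3000 and up to 5000 bases had a median of 0.01. Genes of a single exon over 1000 bases, the form of PCDHB genes, had a median of 0.05. By level, the median was 0.35 for genes of up to 2 FPKM and -0.53 for those above 20 FPKM. Their part in the result was not tested.

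Of the marker lists of other cells, mesenchyme and trophoblast or amnion had far higher sums in HEB KO library 1 than elsewhere. The neural, mesoderm and endoderm sums did not stand out upward in that library. The summed level of 6 mesenchyme markers was 94.1 FPKM in HEB KO library 1, against 11.8 to 22.4 FPKM in wild type and 13.6 to 15.3 FPKM in HEB KO libraries 2 and 3. The collagen gene COL1A1 read 1.14, 1.24 and 0.391 FPKM in wild type and 39.7, 3.21 and 1.74 in HEB KO, and the smooth muscle actin gene ACTA2 0.681, 1.99 and 1.78 FPKM and 7.62, 4.02 and 2.44 FPKM. Both were thus higher in each HEB KO library than in any wild type library, and neither was called (limma, Benjamini-Hochberg adjusted p = 0.502 and 0.386). COL1A2 lay between 7.97 and 20.5 FPKM except in HEB KO library 1, where it reached 46.3 FPKM, while COL3A1, TWIST1 and PRRX1 were below 1 FPKM in all 6 libraries. For 6 trophoblast and amnion markers the sum was 8.89 FPKM in HEB KO library 1, against 0.753 to 2.94 FPKM elsewhere. TFAP2A read 3.90 FPKM and GATA3 2.47 FPKM in that library, and CGB was at 0 in all libraries. KRT7, of the same list, was higher in each HEB KO library than in any wild type library, at 0.760, 0.624 and 1.06 FPKM against 1.70, 1.40 and 2.78 FPKM, and was not called (limma, Benjamini-Hochberg adjusted p = 0.409). The 12 neural markers summed to 52.8 to 74.2 FPKM in wild type and 54.5 to 69.4 FPKM in HEB KO, mostly through NES and SYT1, and 9 of them were below 1 FPKM in every library. The 6 mesoderm markers summed to at most 1.26 FPKM, with MSGN1 at 0 and TBX6 and PDGFRA below 1 FPKM in every library, and the 5 endoderm markers to at most 2.09 FPKM, of which AFP gave 2.03 FPKM in HEB KO library 2 while GATA4 stayed at 0.118 FPKM or less. The part of these cells in the protocadherin levels was not tested, and in bulk RNA more cells of a type cannot be told apart from more RNA per cell. The 10 markers of the labelled cell type were all present in every library. Their sum was 3051 to 3551 FPKM in 5 libraries and 1971 FPKM in HEB KO library 1. The summed FPKM of all genes was also lowest in that library, at 440703 against 635114 or more elsewhere. Between it and HEB KO libraries 2 and 3 the median log2 difference was -0.83 for the 10 markers. For genes above 20 FPKM it was -0.53, and the part of these shifts in the marker sum was not tested. POU5F1, a core pluripotency factor, read 562, 964 and 1279 FPKM in wild type and 327, 873 and 902 in HEB KO. LIN28A, an RNA-binding protein of pluripotent cells, averaged 536 and 507 FPKM. NANOG, another core factor, was lower in each HEB KO library than in any wild type library, at 208, 203 and 198 FPKM against 74.3, 123 and 95.1 FPKM, and SALL4, a zinc finger factor, was higher, at 39.9, 43.6 and 37.4 FPKM against 53.6, 60.3 and 64.4 FPKM. Neither was called over all libraries (limma, Benjamini-Hochberg adjusted p = 0.274 and 0.422).

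The summed level of each class gave the broad picture. PCDHA genes together reached 55.5, 41.9 and 31.7 FPKM in wild type and 67.0, 27.7 and 27.8 in HEB KO. The mean was 43.0 ± 11.97 FPKM and 40.8 ± 22.6 FPKM (SD, n = 3 each), a ratio of 0.949. PCDHB genes reached 73.3, 44.6 and 35.4 FPKM in wild type and 83.6, 30.99 and 31.9 in HEB KO, a ratio of 0.956. In both clusters library 1 was the highest of its group and the groups overlapped.

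The PCDHG sum differed most between libraries. It was 54.5, 39.3 and 23.4 FPKM in wild type and 111, 21.6 and 23.9 in HEB KO, a ratio of 1.34 that rested on HEB KO library 1, since the ratio of libraries 2 and 3 alone was 0.725. For libraries 2 and 3 alone the ratio was 0.755 in PCDHA and 0.787 in PCDHB. Non-clustered genes summed to 52.5, 46.9 and 32.5 FPKM in wild type and 92.5, 42.1 and 44.96 in HEB KO, with a ratio of 1.36 over all libraries and 1.10 for libraries 2 and 3. These sums are descriptions without a test, and in each class the difference between group means was smaller than the SD of the HEB KO libraries.

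**Figure D3:**
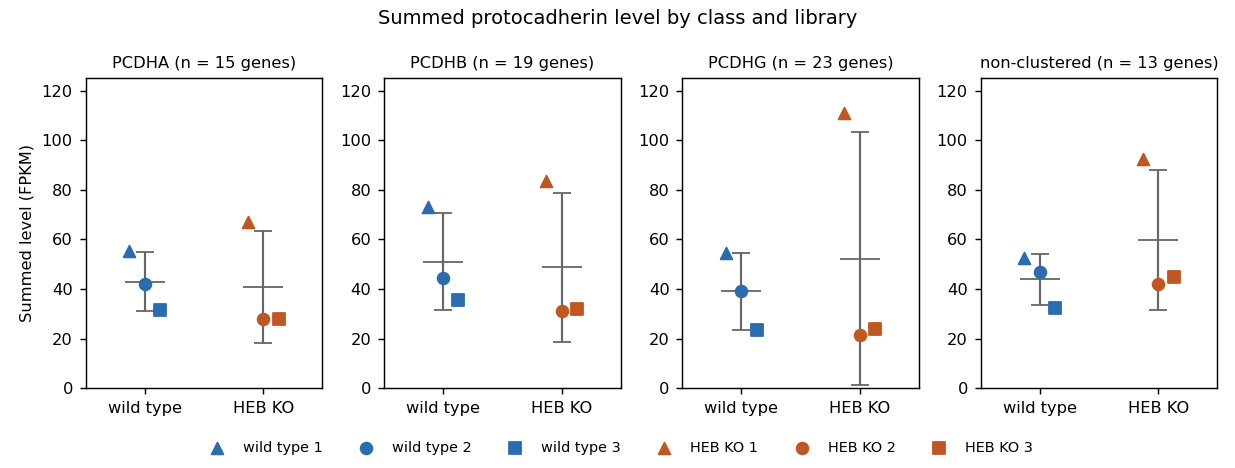
Summed FPKM of the PCDHA, PCDHB, PCDHG and non-clustered genes (y axis) in each library, by group (x axis), with the group mean and SD (grey bars, n = 3 libraries). HEB KO library 1 is the highest point in each panel, at 111 FPKM for PCDHG against 21.6 and 23.9 FPKM in HEB KO libraries 2 and 3.

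In the PCDHA cluster the largest fitted differences between the groups were those of the C-type genes, and neither was called over all libraries. PCDHAC2, which lies nearest the constant exons and in mouse is the isoform of serotonergic neurons, read 7.59, 8.35 and 5.14 FPKM in wild type and 5.78, 2.70 and 2.14 in HEB KO. HEB KO libraries 2 and 3 were below all wild type libraries, and HEB KO library 1 lay within their range. The log2 difference was -0.88 ± 0.32 (SE) with all 6 libraries (limma, Benjamini-Hochberg adjusted p = 0.419). Without both libraries numbered 1 it was -1.15 ± 0.23, with an adjusted p of 0.0411, in a fit that called 480 of 12937 genes (3.71%) and 2 of the 37 protocadherin genes.

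PCDHAC1, the other C-type gene of the cluster, read 6.59, 7.39 and 5.55 FPKM in wild type and 6.40, 3.16 and 3.43 in HEB KO. Again HEB KO library 1 fell among the wild type values, and the other two HEB KO libraries lay below them. Its log2 difference was -0.54 ± 0.26 (limma, Benjamini-Hochberg adjusted p = 0.539), and -0.79 ± 0.18 without both libraries numbered 1 (adjusted p = 0.0561). With library weights, a setting that gives less weight to libraries that stand apart and calls 1874 genes (14.5%), 4 protocadherin genes passed, namely PCDH10, PCDHAC1, PCDHAC2 and PCDHGA10.

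The most abundant alternate PCDHA genes, PCDHA11 and PCDHA12, differed little between group means. PCDHA12 read 8.34, 5.71 and 3.73 FPKM in wild type and 8.22, 5.18 and 4.70 in HEB KO. PCDHA11 read 5.69, 4.43 and 3.51 FPKM in wild type and 7.72, 4.72 and 3.52 in HEB KO. The groups overlapped for both, with library 1 the highest of each group. Their log2 differences of 0.04 ± 0.31 and 0.15 ± 0.29 were within the spread (limma, Benjamini-Hochberg adjusted p = 0.974 and 0.879).

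PCDHA4 read 5.31, 2.66 and 2.82 FPKM in wild type and 6.47, 3.06 and 3.31 in HEB KO. PCDHA10 read 6.03, 3.11 and 3.05 FPKM in wild type and 5.78, 1.89 and 2.54 in HEB KO. In both, the libraries numbered 1 stood above all others, and for PCDHA10 HEB KO libraries 2 and 3 were below every wild type library. PCDHA2, PCDHA3, PCDHA5, PCDHA6, PCDHA8 and PCDHA13 had means of 0.983 to 2.29 FPKM in wild type and 1.47 to 2.31 FPKM in HEB KO. PCDHA1, PCDHA7 and PCDHA9 stayed at 2.01 FPKM or less in every library. PCDHA1 was 1 of 5 PCDHA genes that did not peak in HEB KO library 1, at 1.70, 0.751 and 0.924 FPKM in wild type and 0.590, 0.604 and 0.887 in HEB KO.

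The share of the PCDHA sum held by PCDHAC1 and PCDHAC2 does not change when all values of a library are scaled. It was 25.5%, 37.5% and 33.8% in wild type and 18.2%, 21.1% and 20.02% in HEB KO. All 3 HEB KO libraries, library 1 included, lay below all 3 wild type libraries. The mean share was 32.3 ± 6.14% and 19.8 ± 1.49% (SD, n = 3 each). This share was 1 of 10 computed, the pair was singled out after its values were seen, and it carries no test. In 1 more of the 10, the PCDHGA genes as a share of PCDHG, the groups did not overlap either, but the gap was small, at 36.3% to 36.7% in wild type and 38.3% to 39.5% in HEB KO.

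The PCDHB cluster was led by the same genes in both groups. PCDHB2 read 22.3, 14.2 and 10.6 FPKM in wild type and 21.0, 10.1 and 9.86 in HEB KO. PCDHB5 read 18.5, 11.98 and 10.9 FPKM in wild type and 13.003, 7.95 and 8.99 in HEB KO. For both, HEB KO libraries 2 and 3 were below every wild type library and HEB KO library 1 was not. PCDHB5 had a log2 difference of -0.42 ± 0.27 (limma, Benjamini-Hochberg adjusted p = 0.634), and for PCDHB2 it was -0.21 ± 0.36 (adjusted p = 0.868).

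PCDHB15, at the far end of the cluster, read 9.78, 6.38 and 5.46 FPKM in wild type and 10.5, 4.58 and 4.997 in HEB KO. PCDHB3 was more uneven, at 5.07, 2.28 and 1.78 FPKM in wild type and 8.66, 1.64 and 1.49 in HEB KO, where library 1 was 5.54-fold above the mean of libraries 2 and 3. PCDHB4 showed the same shape at a lower level, 1.70, 1.05 and 0.663 FPKM against 3.78, 0.520 and 0.536 FPKM. Their groups overlapped, and so did those of PCDHB10 and PCDHB16, at means of 1.42 and 1.61 FPKM in wild type and 1.65 and 1.67 in HEB KO. PCDHB2, PCDHB5 and PCDHB15 differed less between HEB KO library 1 and libraries 2 and 3, by 2.11-fold, 1.54-fold and 2.19-fold, than PCDHB3 or PCDHB4, at 5.54-fold and 7.16-fold. Their joint share of the PCDHB sum was accordingly 53.3% in HEB KO library 1 and 69.1% to 76.1% elsewhere.

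The remaining PCDHB genes were low. PCDHB9, PCDHB11, PCDHB12, PCDHB13 and PCDHB14 lay between 0.258 and 3.72 FPKM, and each had its highest value in HEB KO library 1. PCDHB1, whose window held no GGTGGCGCT, read 0.317, 0.0198 and 0.112 FPKM in wild type and 0.0756, 0.0203 and 0.0192 in HEB KO. It was thus the lowest PCDHB gene by its mean, and unlike most it was highest in wild type library 1. PCDHB7 and PCDHB8 were below 1 FPKM in all 6 libraries too.

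PCDHG genes had the highest values in HEB KO library 1 relative to libraries 2 and 3. PCDHGB7 read 5.11, 4.70 and 2.86 FPKM in wild type and 12.8, 2.08 and 2.78 in HEB KO. PCDHGB4 read 7.40, 4.47 and 2.97 FPKM in wild type and 8.33, 3.48 and 3.55 in HEB KO. PCDHGA11 read 4.10, 3.81 and 1.92 FPKM in wild type and 12.7, 2.02 and 2.55 in HEB KO. HEB KO library 1 was highest for all 3, by a wide gap for PCDHGB7 and PCDHGA11 and a narrow one for PCDHGB4.

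Among C-type genes, PCDHGC3, whose protein is reported to dampen Wnt signalling through AXIN1, read 3.93, 2.78 and 1.97 FPKM in wild type and 9.14, 1.21 and 1.12 in HEB KO. PCDHGC4, needed in mouse for the survival of many interneurons, read 2.02, 1.10 and 0.782 FPKM in wild type and 4.04, 0.440 and 0.478 in HEB KO. PCDHGC5 was lower, at 0.594, 0.597 and 0.289 FPKM and 2.97, 0.242 and 0.302 FPKM. For PCDHGC3 and PCDHGC4 the HEB KO values enclosed all wild type values, with library 1 above and libraries 2 and 3 below them. Their log2 differences were -0.07 ± 0.58 and -0.03 ± 0.49 over all libraries (limma, Benjamini-Hochberg adjusted p = 0.978 and 0.992). Without both libraries numbered 1 that of PCDHGC3 was -0.63 ± 0.18 (adjusted p = 0.0992).

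PCDHGA10 read 3.13, 2.34 and 1.40 FPKM in wild type and 5.23, 0.887 and 0.835 in HEB KO, the same enclosing pattern. Its log2 difference was -0.20 ± 0.48 (limma, Benjamini-Hochberg adjusted p = 0.908), and -0.71 ± 0.21 with library weights (adjusted p = 0.0473). PCDHGB1, PCDHGB2, PCDHGB5, PCDHGB6, PCDHGA4, PCDHGA8 and the pseudogene PCDHGB8P had means of 1.26 to 3.19 FPKM in wild type and 1.61 to 3.95 FPKM in HEB KO, and all overlapped. PCDHGB8P, a single exon that is not joined to the constant exons, read 2.08, 1.46 and 0.738 FPKM in wild type and 6.05, 0.617 and 0.532 in HEB KO. It was highest in HEB KO library 1, as were all other tested PCDHG genes. PCDHGA2 and PCDHGA3, near the start of the cluster, were below 1 FPKM in all libraries.

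Non-clustered genes varied one by one. PCDH10, a delta-2 protocadherin often silenced by promoter methylation in tumours, read 4.27, 1.89 and 1.73 FPKM in wild type and 5.27, 4.11 and 6.44 in HEB KO. HEB KO libraries 1 and 3 exceeded all wild type libraries, and HEB KO library 2 lay just below wild type library 1. It was the only tested protocadherin gene with its highest value in HEB KO library 3. Wild type averaged 2.63 ± 1.42 FPKM (SD, n = 3) and HEB KO 5.27 ± 1.16 FPKM (SD, n = 3), a ratio of 2.01. The log2 difference was 0.84 ± 0.30 (SE; limma, Benjamini-Hochberg adjusted p = 0.409), and without both libraries numbered 1 it was 1.14 ± 0.21 (adjusted p = 0.0347).

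PCDH1, an adhesion protein of airway epithelium and the receptor of New World hantaviruses, read 23.6, 19.7 and 13.9 FPKM in wild type and 50.1, 20.6 and 20.7 in HEB KO. HEB KO library 1 stood alone at the top and the other libraries overlapped. PCDH18, a delta-2 protocadherin, read 20.7, 23.03 and 15.4 FPKM in wild type and 20.3, 15.2 and 15.0 in HEB KO, the most even of the non-clustered genes above 1 FPKM. Their log2 differences were 0.55 ± 0.37 and -0.21 ± 0.23 (limma, Benjamini-Hochberg adjusted p = 0.651 and 0.784).

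PCDH7, a delta-1 protocadherin, read 1.51, 0.685 and 0.259 FPKM in wild type and 11.2, 0.959 and 1.49 in HEB KO. Its 5.55-fold ratio of group means came from HEB KO library 1, which was 9.14-fold above the mean of libraries 2 and 3, and the groups overlapped (log2 difference 1.16 ± 0.65; limma, Benjamini-Hochberg adjusted p = 0.583). PCDH17, which acts at synapses in mouse, read 0.432, 0.468 and 0.321 FPKM in wild type and 1.79, 0.146 and 0.192 in HEB KO. PCDH9 read 0.256, 0.137 and 0.0525 FPKM in wild type and 1.21, 0.123 and 0.191 in HEB KO. PCDH7, PCDH9 and PCDH17 were thus all far higher in HEB KO library 1 than in the other 5 libraries. PCDH19, the X-linked gene of an epilepsy syndrome, was 12.8-fold higher in HEB KO library 1 than in the mean of libraries 2 and 3, but at 0.7499 FPKM.

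PCDH20 read 1.13, 0.446 and 0.397 FPKM in wild type and 0.860, 0.604 and 0.638 in HEB KO, with wild type library 1 highest. PCDH8, the counterpart of the paraxial protocadherin of vertebrate somites, stayed between 0.0402 and 0.288 FPKM. PCDH12, an endothelial protocadherin, lay between 0.0951 and 0.453 FPKM, and PCDH15, part of the tip link of hair cells, between 0.0346 and 0.183 FPKM. PCDH9-AS3 was listed at 0 in 5 libraries and at 0.151 FPKM in HEB KO library 1. Antisense and overlapping genes cannot be told apart with certainty, since the use of strand in the counting is not given in the sources used here. The 6 non-clustered genes below 1 FPKM in all 6 libraries were too low for the test. So were PCDH9, PCDH17 and PCDH20, which each reached 1 FPKM in only 1 library.

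**Figure D4:**
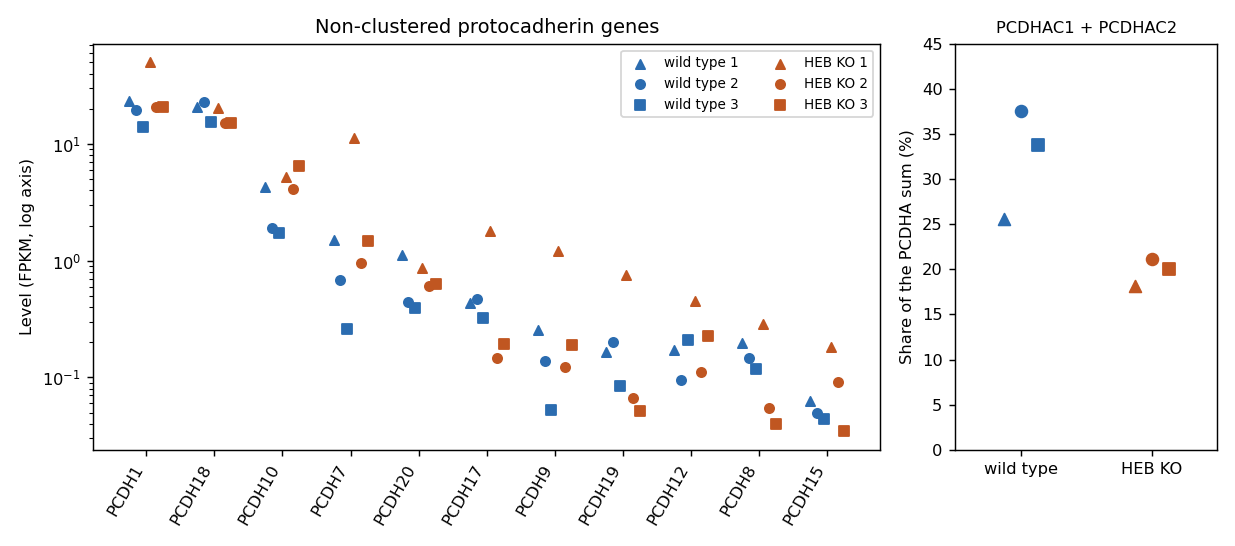
Left, level of the 11 non-clustered protein-coding protocadherin genes (x axis, by falling mean) in each library (y axis, FPKM on a log axis). Right, PCDHAC1 and PCDHAC2 as a percent of the PCDHA sum in each library, which is 25.5% to 37.5% in wild type and 18.2% to 21.1% in HEB KO.

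Libraries 2 and 3 of each group were also compared without the libraries numbered 1. Their summed protocadherin levels were 122 and 129 FPKM in HEB KO, and 173 and 123 FPKM in wild type, so wild type library 3 lay at the level of the HEB KO pair. The log2 difference HEB KO minus wild type between these libraries was below 0 for 31 of the 37 tested protocadherin genes, with a median of -0.25. Over all tested genes 6643 of 12937 were below 0, with a median of -0.01. All 7 PCDHB and all 15 PCDHG genes, 8 of 11 PCDHA genes and 1 of 4 non-clustered genes were lower. The 2 HEB KO libraries lay wholly below the 2 wild type libraries for 18 of the 37, against 29.4% of all tested genes, and wholly above for 4, against 27.4%. In limma without both libraries numbered 1, 7 of the 37 had an unadjusted p under 0.05, against 24.5% of all tested genes, and PCDHAC2 and PCDH10 were called after Benjamini-Hochberg adjustment. With HEB KO library 1 alone left out none of the 37 was called, in a fit that called 76 genes (0.587%).

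**Figure D5:**
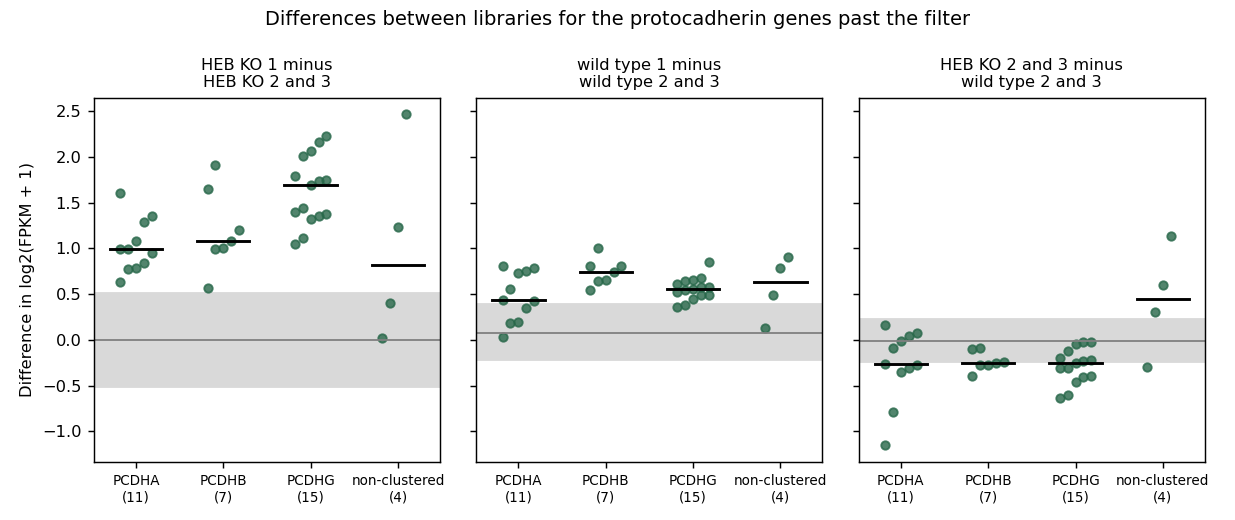
Log2(FPKM + 1) differences (y axis) for the 37 tested protocadherin genes by class (x axis, number of genes in brackets), 1 point per gene with the class median as a black bar, and with the middle 50% of all tested genes in grey and their median as a grey line. The PCDHG genes have a median of 1.70 between HEB KO library 1 and HEB KO libraries 2 and 3 and of -0.25 between the groups' libraries 2 and 3.

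Genes known to act at protocadherin promoters were measured beside them. Of 25 tested regulators, which include CTCF, cohesin subunits, DNA methyltransferases and silencing factors, limma with Benjamini-Hochberg adjustment called none in either direction. Only 2 of the 25, UHRF1 and REST, had an unadjusted limma p under 0.05, against 10.0% of all tested genes. UHRF1 was higher in each HEB KO library than in any wild type library, with a log2 difference of 0.78 (limma, adjusted p = 0.304). REST was lower in each HEB KO library than in any wild type library, with a log2 difference of -0.48 (adjusted p = 0.477). With library weights the limma adjusted p was 0.017 for UHRF1 and 0.0591 for REST. The median log2 difference of the 25 was -0.09. CTCF, which binds the conserved element, read 30.6, 31.6 and 32.1 FPKM in wild type and 21.2, 29.1 and 29.5 in HEB KO. DNMT3B, the de novo DNA methyltransferase of highest level in these cells, read 462, 262 and 333 FPKM in wild type and 323, 667 and 594 in HEB KO. HEB KO libraries 2 and 3 exceeded all wild type libraries while HEB KO library 1 did not. Its log2 difference was 0.55 ± 0.41 (adjusted p = 0.676), and 1.09 without both libraries numbered 1 (adjusted p = 0.0436 by limma). TRIM28, a co-repressor that recruits a histone methyltransferase, had means of 177 FPKM in wild type and 253 in HEB KO.

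Of 23 tested partners, which bind protocadherins or act below them, none was called. None had an unadjusted limma p under 0.05, against 10.0% of all tested genes, and their median log2 difference was -0.17. CTNNB1, the catenin of classical cadherins and Wnt signalling, had means of 289 and 226 FPKM, and the GTPase RAC1 of 132 and 113 FPKM. WASF2, a subunit of the actin-regulating WAVE complex, was not called over all libraries, but was without both libraries numbered 1 (log2 difference -0.83; limma, Benjamini-Hochberg adjusted p = 0.0414) and with library weights (adjusted p = 0.0219). It read 13.9, 21.3 and 17.8 FPKM in wild type and 29.8, 9.76 and 11.3 in HEB KO.

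Other members of the cadherin superfamily resembled the protocadherins in their library pattern. Of 34 genes, 25 had their highest value in HEB KO library 1, many of them at low levels. Among the 19 tested ones it was 12, against 29 of the 37 tested protocadherin genes and 27.5% of all tested genes. The 19 had a median log2 difference of 1.22 between that library and HEB KO libraries 2 and 3, beside 0.00 for all tested genes. None of the 19 was called between the groups over all libraries, and their median log2 difference was 0.12. Only CDH13 had an unadjusted limma p under 0.05, against 10.0% of all tested genes. CDH1, the E-cadherin of epithelial and pluripotent cells, read 174, 101 and 80.0 FPKM in wild type and 116, 39.7 and 51.6 in HEB KO. CDH13, a cadherin without a cytoplasmic tail, read 0.776, 0.248 and 0.185 FPKM in wild type and 1.61, 3.04 and 1.68 in HEB KO. Without both libraries numbered 1 CDH1 had a log2 difference of -0.98 and CDH13 of 1.44 (limma, Benjamini-Hochberg adjusted p = 0.0444 and 0.0228). CDH3, the P-cadherin, had means of 66.7 and 58.3 FPKM.

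The genes beside the clusters on chromosome 5 were measured to see how the region around them stood. Of 17 tested neighbours none was called and 1, RELL2, had an unadjusted limma p under 0.05, against 10.0% of all tested genes. The median log2 difference of the 17 was 0.07. Between HEB KO library 1 and libraries 2 and 3 their median log2 difference was -0.58, opposite in sign to that of each protocadherin class. Single neighbours went the other way, with log2 differences of 1.71 for DIAPH1, 1.21 for DND1, 0.79 for ARAP3, 0.58 for FCHSD1 and 0.03 for TMCO6. Over tested genes in general this median also varied with level, at -0.53 above 20 FPKM and 0.32 above 2 to 5 FPKM. TAF7 and several other neighbours averaged above 20 FPKM, whereas the highest clustered protocadherin gene, PCDHB2, averaged 14.7 FPKM. The part of level in the contrast was not tested. TAF7, which lies between the PCDHB and PCDHG clusters and encodes a subunit of TFIID, read 70.6, 62.5 and 74.6 FPKM in wild type and 41.5, 72.5 and 71.2 in HEB KO. The short RNA VTRNA1-3 varied from 0 to 2541 FPKM between libraries.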

How the data were processed

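Total RNA of 3 wild type and 3 HEB KO libraries of H1 cells was analysed from the deposited table of the authors, with groups and library numbers from the labels. Its values were taken as FPKM made by the authors, judged from the deposited values, since the labels name no unit. The submitters' processing notes name Bowtie2 2.2.6, TopHat2 2.1.0 and the hg19 build. How the authors quantified genes, on which annotation, with what use of strand and scaling, is not given in the sources used here. From 23619 entries, 28 with a date in place of a symbol were left out. The depth per library is unknown, because FPKM holds no counts.

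Values were turned into log2(FPKM + 1), and 12937 genes that reached 1 FPKM in 3 or more of the 6 libraries were tested. The tool was limma 3.58.1 (R 4.3.3), fitted with a trend of the spread on the level and with Benjamini-Hochberg adjustment over all of them at 0.05. The log2 scale with a pseudocount of 1 understates changes of low genes, and fold values are ratios of mean FPKM. A two-sided exact permutation test of 3 libraries against 3 cannot go below p = 0.1, so none was used. The fit was tested on simulated data, with independent noise for each gene and no library set apart, unlike these data. It recovered 9 of 48 changes of 1 log2 unit and 41 of 50 changes of 2 log2 units. The members, gene lists and settings were chosen with earlier results of these data known. By the rule for named genes, the text names all non-clustered genes, up to 12 genes of each cluster that averaged 1 FPKM or more in a group, the C-type genes, and 2 genes of each list. CTCF, UHRF1, REST, WASF2, CDH13, RELL2, NANOG, SALL4, ACTA2, GATA3, DIAPH1, DND1, ARAP3, FCHSD1 and TMCO6 were added after their values were seen. So were COL3A1, TWIST1, PRRX1, PCDHB7, PCDHB8 and the other low cluster genes. Transcript models came from GENCODE 29 and promoter windows from RefSeq GRCh38.p14, whose build differs from hg19, so its coordinates serve only for sequence. Promoters were searched for exact letters. Class sums, shares and lists are descriptions with no test of their own.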

Additional observations from a re-analysis of the deposited data

How the results depend on the processing

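The settings tried were pseudocounts of 0.1 and 5, no filter on low values, a filter at 5 FPKM, scaling by the trimmed mean of M values, library weights, a replicate block, each library left out in turn, and both libraries numbered 1 left out. Over all genes 31 were called. Leaving out both libraries numbered 1 gave 480, library weights 1874, the higher filter 18 and no filter 11, and leaving out a single library gave between 7 and 76. The number of protocadherin genes called was 0, became 4 under library weights and 2 when both libraries numbered 1 were left out, and was 0 in all other settings. The ratio of the PCDHG sums, 1.34, was 0.725 without both libraries numbered 1 and from 0.582 to 1.73 with a single library left out. The SD of the HEB KO sums is itself set largely by HEB KO library 1, so it is no measure of how stable these ratios are.

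Same-numbered libraries of the groups had correlations of their deviations from the group means of 0.26, -0.040 and 0.27, so the numbers were not shown to pair the libraries. With the replicate block 10 genes were called, none of them a protocadherin gene, and TCF12 was not called (limma adjusted p = 0.0957).

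TCF12, called over all libraries, kept its direction in every setting run. Among the genes set by the rule for named genes, the log2 differences, HEB KO minus wild type, that changed sign were as follows, and the cause was not tested. With library weights they were PCDHA12 -0.089, PCDHA11 -0.093, PCDHA6 -0.022, PCDHA13 -0.37, PCDHA5 -0.36, PCDHB3 -0.34, PCDHB10 -0.15, PCDHB4 -0.34, PCDHGB7 -0.50, PCDHGB4 -0.18, PCDHGA11 -0.28, PCDHGB6 -0.50, PCDHGB1 -0.29, PCDHGB2 -0.36, PCDHGB8P -0.50, PCDHGA8 -0.29, PCDHGB5 -0.34, PCDHGA4 -0.19, LIN28A 0.32, COL1A2 -0.54, RAC1 0.081, TAF7 0.096. Without both libraries numbered 1 they were PCDHA6 -0.010, PCDHA13 -0.30, PCDHA5 -0.26, PCDHB3 -0.24, PCDHB10 -0.099, PCDHB4 -0.27, PCDHGB7 -0.46, PCDHGB4 -0.047, PCDHGA11 -0.20, PCDHGB6 -0.31, PCDHGB1 -0.23, PCDHGB2 -0.31, PCDHGB8P -0.39, PCDHGA8 -0.25, PCDHGB5 -0.22, PCDHGA4 -0.13, LIN28A 0.20, NES 0.12, COL1A2 -0.44, TAF7 0.072. With a pseudocount of 0.1 they were PCDHA13 -0.0071, PCDHA5 -0.0010, PCDHB4 -0.016, PCDHGB1 -0.023, PCDHGB2 -0.0096, PCDHGB8P -0.0097, PCDHGA8 -0.024, and with a pseudocount of 5 they were PCDHB16 0.0074, PCDHGC3 0.050, PCDHGC4 0.040. With a library left out in turn the ranges were PCDHA12 -0.20 to 0.29, PCDHA11 -0.11 to 0.37, PCDHA4 -0.091 to 0.44, PCDHA10 -0.61 to 0.010, PCDHA3 -0.35 to 0.25, PCDHA2 -0.46 to 0.050, PCDHA6 -0.15 to 0.69, PCDHA13 -0.37 to 0.32, PCDHA5 -0.38 to 0.34, PCDHB2 -0.54 to 0.062, PCDHB15 -0.47 to 0.074, PCDHB3 -0.57 to 0.40, PCDHB16 -0.36 to 0.27, PCDHB10 -0.35 to 0.30, PCDHB4 -0.46 to 0.37, PCDHGB7 -0.59 to 0.49, PCDHGB4 -0.33 to 0.30, PCDHGA11 -0.34 to 0.75, PCDHGB6 -0.53 to 0.38, PCDHGC3 -0.82 to 0.31, PCDHGA10 -0.79 to 0.096, PCDHGB1 -0.45 to 0.32, PCDHGB2 -0.50 to 0.38, PCDHGB8P -0.58 to 0.52, PCDHGA8 -0.42 to 0.27, PCDHGB5 -0.34 to 0.24, PCDHGA4 -0.30 to 0.38, PCDHGC4 -0.62 to 0.28, POU5F1 -0.80 to 0.0032, LIN28A -0.49 to 0.22, NES -0.24 to 0.055, SYT1 -0.42 to 0.047, COL1A2 -0.68 to 0.52, RAC1 -0.44 to 0.045, TAF7 -0.34 to 0.056.

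FPKM holds no counts, so the depth of each library is unknown and no counting interval can be given. With 3 libraries a group and the spread seen here, an uncalled gene is not shown to be alike in both groups. HEB KO library 1 decides the PCDHG ratio and much of the size of the PCDH7 ratio. In libraries 2 and 3 alone PCDH7 was also higher in HEB KO. Single PCDHA and PCDHG isoforms share exons, so their values are not independent of each other.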
